A study of Homo sapiens with 8 samples.

Results

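The 9 genes described here, DUSP4, DUSP5, DUSP6, SPRY2, SPRY4, SPRED1, ETV4, ETV5 and PHLDA1, are genes whose transcription follows signalling through RAS and the kinase ERK, and most of them feed back on that pathway. They were chosen by gene symbol, with earlier results of these data known, and are 9 of the 57820 genes in the deposited tables. The data come from A549, a human lung adenocarcinoma cell line, studied in a pair of poly(A) RNA-seq experiments. In the first, cells carrying an MGA overexpression vector (MGA) were set against cells carrying an empty vector (Empty). In the second, cells treated with an siRNA against MYC (siMYC) were set against cells treated with a negative control siRNA (siNC). Each of the 4 groups had 2 libraries, replicates A and B. No source used here gives the culture times, the vector's promoter or the siRNA dose. Nor does any label say that A and B came from separate cultures, so a p-value here reflects the spread between the sampled libraries, and that spread may be technical.

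In this pathway an active RAS protein switches on RAF, MEK and ERK in turn, and ERK then phosphorylates transcription factors and downstream kinases. Part of the output is inhibitory. DUSP4, DUSP5 and DUSP6 encode phosphatases that remove the activating phosphates from ERK, SPRY2 and SPRY4 encode Sprouty proteins that dampen the signal between growth factor receptors and RAF, and SPRED1 encodes an adaptor that brings the RAS inhibitor neurofibromin to the membrane. ETV4 and ETV5 encode ETS transcription factors that the repressor CIC holds silent until ERK inactivates it. PHLDA1 encodes a small pleckstrin-homology-like protein whose transcript is used, with several of the others, as a readout of MEK activity. MGA is a DNA-binding partner of MAX that represses genes, and MYC activates genes with the same partner. Both pairs recognise the E-box CACGTG, so the comparisons ask how the output of this pathway responds when MGA is raised and when MYC is lowered.

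Promoter sequences from RefSeq (GRCh38.p14) were read first, as windows of 300 bases from 250 bases before to 50 bases after an annotated start. Windows were counted for 5 of the 9 genes, 7 windows in all, for DUSP6, PHLDA1, SPRY2, SPRY4 and SPRED1. No window of DUSP4, DUSP5, ETV4 or ETV5 was counted, so the counts out of 7 below say nothing of these genes. The E-box CACGTG, searched on both strands, was in 0 of the 7 windows, against 7.26% of all 35116 windows. The octamer TGAATGAA that CIC binds was in 0 of 7 windows (1.65% of all windows), as was the ETS core CCGGAAGT (4.14% of all windows). Shorter forms were searched after these results were seen. TGAATGA, which is contained in the octamer, was in 4.01% of all windows and in that of DUSP6. CCGGAA, which is contained in the ETS core, was in 17.2% of all windows and in windows of PHLDA1 and SPRY2. The windows of DUSP6 (chr12:89352452-89352751, minus strand) and PHLDA1 (chr12:76031727-76032026, minus strand) are shown because they hold these matches, printed 5′ to 3′ in the direction of transcription. In the DUSP6 window the capitals mark TGAATGA, and in the PHLDA1 window they mark TTCCGG, the complement of CCGGAA on the opposite strand.
DUSP6: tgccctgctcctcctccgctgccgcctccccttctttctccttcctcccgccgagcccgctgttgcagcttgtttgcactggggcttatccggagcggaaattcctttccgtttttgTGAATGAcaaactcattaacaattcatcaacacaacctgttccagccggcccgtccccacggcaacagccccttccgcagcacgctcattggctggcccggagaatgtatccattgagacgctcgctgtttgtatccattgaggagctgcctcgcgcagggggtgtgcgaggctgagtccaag
PHLDA1: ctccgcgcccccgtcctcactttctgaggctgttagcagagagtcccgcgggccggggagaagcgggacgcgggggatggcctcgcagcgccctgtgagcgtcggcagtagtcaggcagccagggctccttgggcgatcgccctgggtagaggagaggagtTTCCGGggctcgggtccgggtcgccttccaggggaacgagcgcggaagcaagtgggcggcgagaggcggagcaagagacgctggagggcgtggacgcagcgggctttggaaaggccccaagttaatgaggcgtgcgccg
A match describes these letters in this window and does not show that a factor binds there.

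The libraries were shallow. Total expected counts were 917548 and 1176890 with MGA, 820428 and 844477 with Empty, 1598792 and 2129006 with siMYC, and 1398805 and 1741730 with siNC. All 9 genes passed the filter on low counts, with at least 16 counts in every library; DUSP4, DUSP5 and PHLDA1 had 152 to 613 counts and the other 6 had 16 to 135. The manipulated genes moved in the labelled direction. MGA stood at 103100 ± 902 CPM (counts scaled to library size by TMM) in MGA cells and 101.6 ± 28.3 CPM in Empty cells (SD, n = 2 each), and made up 9.54% and 9.68% of the counts of the MGA libraries. MYC stood at 44.7 ± 5.05 CPM in siMYC cells and 200.9 ± 26.0 CPM in siNC cells (SD, n = 2 each). MYC was also higher with MGA (log2 fold change 0.43, SE 0.12, edgeR adjusted p = 0.025), a call lost without Empty replicate A, Empty replicate B or MGA replicate B, with upper-quartile or plain library-size scaling, in DESeq2 and on either TPM scale. Of 8 epithelial and A549 markers, keratin genes KRT8 and KRT18 were high in every library (993 to 3220 TPM), as were ALDH1A1 (1510 to 6200 TPM) and AKR1B10 (1030 to 4670 TPM). EPCAM had 0 to 17 counts, and CDH1 and KRT19 were at 6.16 and 9.18 TPM in their lowest libraries. The summed level of the 8 was 5262 to 5377 TPM with MGA, 6345 to 6346 TPM with Empty, 15230 to 16930 TPM with siMYC and 13370 to 14750 TPM with siNC. With MGA 2 of them fell (ALDH1A1 by 0.47 and AKR1B10 by 0.35 on the log2 scale), and with siMYC 2 rose (KRT19 by 1.23 and GPX2 by 0.45) and 2 fell (KRT18 by 0.36 and KRT8 by 0.22). The part of this in the results below was not tested. The lung lineage genes NKX2-1, SFTPA1, SFTPB, SFTPC and SCGB1A1 were listed at 0 throughout and NAPSA reached 3 counts, so defining markers of the lung lineage were absent. Of 7 markers of blood, endothelial and stromal cells, PTPRC, CD3E, VWF and DCN were listed at 0 in all libraries and PECAM1 had no matching row. COL1A1 and CD68 carried the list's summed level, which ranged over 154.8 to 156.8 TPM with MGA, 177.4 to 180.5 TPM with Empty, 124.0 to 125.0 TPM with siMYC and 26.2 to 36.2 TPM with siNC. Both rose with siMYC (log2 fold change 2.23 for COL1A1 and 0.86 for CD68), and the part of this in the siMYC results below was not tested. Fewer cells with a transcript and less transcript per cell cannot be told apart in such bulk samples.

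With MGA, 1 of the 9 genes changed and it fell: the phosphatase gene DUSP4. None of the 9 rose past the threshold, although 7 of 9 fitted log2 fold changes were above 0. Across all 11218 genes tested, 8.96% changed with MGA (4.96% higher and 4.0% lower), so 1 of 9 is close to that share. The balance depends on the scaling: 556 genes were higher and 449 lower here, against 387 and 628 with upper-quartile size factors and 300 and 821 with library sizes alone. With TMM scaling 51.2% of fitted log2 fold changes were above 0. With siMYC, 2 of the 9 genes changed, DUSP4 and the ETS factor gene ETV5, and both rose. The share over all genes tested was higher, 39.0% (19.0% higher and 20.0% lower), and 50.8% of fitted log2 fold changes were above 0, against 8 of 9 here. The median log2 fold change of the 9 genes was 0.32 with MGA and 0.30 with siMYC, against 0.01 in either comparison over all genes tested. The threshold was an adjusted p of 0.05, adjusted over all genes tested, in edgeR's quasi-likelihood test on the counts of all 8 libraries. At an unadjusted p under 0.05, 4 of the 9 genes passed with MGA (22.3% of all genes) and 4 of 9 with siMYC (46.9% of all genes).

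**Figure D1:**
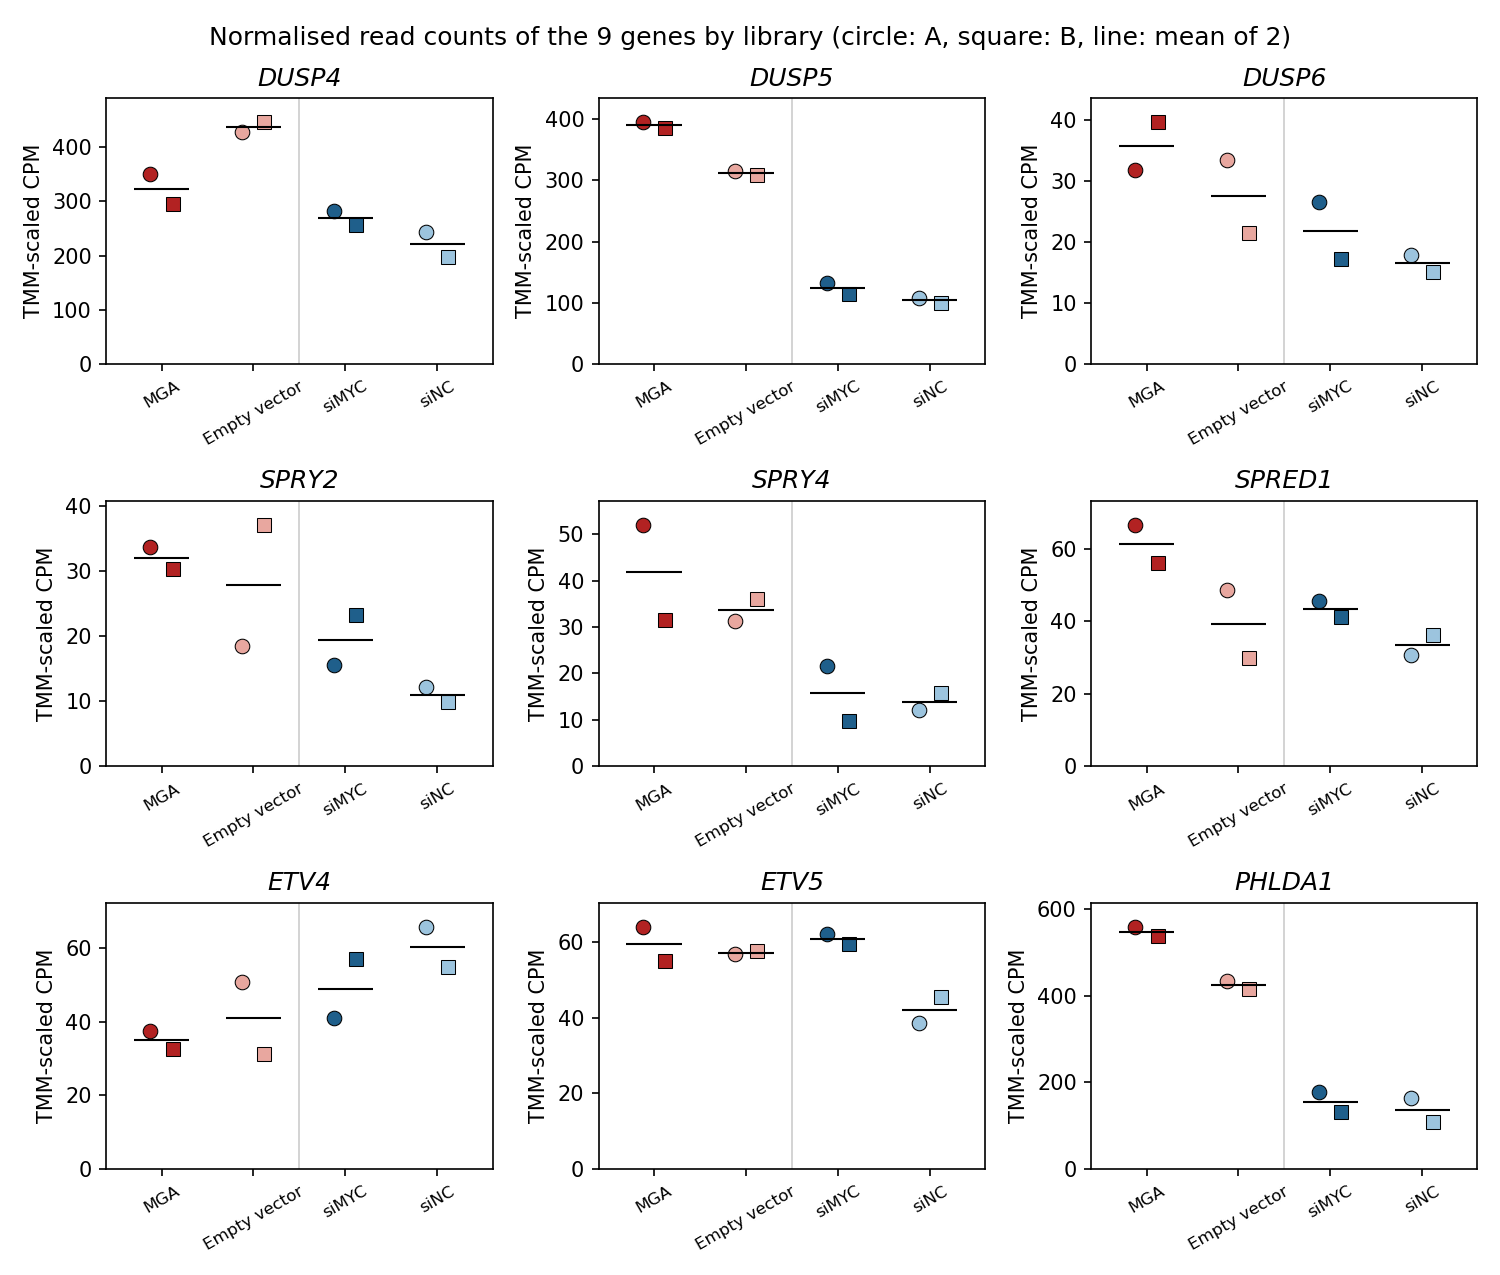
Expression of the 9 genes in each library, in TMM-scaled CPM (vertical axis, linear, from 0), by group on the horizontal axis. Circles are replicate A, squares replicate B and lines the mean of 2. DUSP4 sits lower with MGA (294.4 and 350.4 CPM) than with Empty (427.2 and 446.1 CPM) and higher with siMYC (255.9 and 281.7 CPM) than with siNC (197.7 and 243.6 CPM).

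DUSP4 encodes a nuclear phosphatase that inactivates ERK and the stress kinases. It had 350.4 and 294.4 CPM in the MGA libraries, against 427.2 and 446.1 CPM in the Empty libraries. Both MGA libraries were below both Empty libraries, and the gap between the groups was larger than the spread within either. The log2 fold change was -0.43 (SE 0.11, 95% interval -0.66 to -0.20, edgeR adjusted p = 0.015), which is 0.742 of the Empty level. In the siRNA experiment the gene had 281.7 and 255.9 CPM with siMYC, against 243.6 and 197.7 CPM with siNC. The groups again did not overlap, here with siMYC above, but the gap between them was smaller than the spread within either group. The log2 fold change was 0.30 (SE 0.11, 95% interval 0.07 to 0.52, edgeR adjusted p = 0.032). Both calls were lost without certain libraries, and leaving out 1 library also makes the test less able to reach the threshold. With MGA the call was lost without Empty replicate A (log2 fold change -0.46, adjusted p = 0.077), Empty replicate B (-0.41, adjusted p = 0.13) or MGA replicate B (-0.32, adjusted p = 0.23). With siMYC it was lost without siNC replicate B (0.13, adjusted p = 0.47), siMYC replicate A (0.22, adjusted p = 0.21), Empty replicate A (0.28, adjusted p = 0.058) or Empty replicate B (0.28, adjusted p = 0.06). DESeq2 gave an adjusted p of 0.067 with MGA and 0.094 with siMYC, and neither call held on the TPM scales. The siMYC call was also lost in the fit of the siRNA libraries alone, and the value was 0.45 without siNC replicate A (adjusted p = 0.0057).

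The direct test of the difference between the responses singled out DUSP4 among the 9 genes. Its log2 response to MGA minus its log2 response to siMYC was -0.73 (SE 0.16, 95% interval -1.05 to -0.40, edgeR adjusted p = 0.0015). It was the 1 gene of the 9 past the threshold, and also the 1 with an unadjusted p under 0.05. Across all genes tested, 18.5% passed (10.3% higher and 8.22% lower, or 1154 and 922 genes, against 804 and 1188 with upper-quartile size factors, 714 and 1357 with library sizes alone and 892 and 1101 with the MGA gene left out), 30.8% had an unadjusted p under 0.05, and 51.7% of differences were above 0, against 5 of the 9. Leaving out each library in turn kept the difference past the threshold, at -0.88 to -0.57, as did DESeq2 (-0.76, adjusted p = 0.0059). On log2(TPM + 1) it was -0.86 with an adjusted p of 0.11. For the other 8 genes the difference lay between -0.58 and 0.28 with adjusted p-values of 0.24 to 0.9. Those intervals are wide, for example -1.50 to 0.35 for SPRY2 and -0.99 to 0.07 for ETV5, so the responses of these genes are not shown to be alike.

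DUSP5, which encodes a nuclear phosphatase specific for ERK, had 395.1 and 385.5 CPM with MGA, against 316.1 and 309.4 CPM with Empty. The MGA libraries were above the Empty libraries, by more than the spread within a group, yet the log2 fold change of 0.32 (SE 0.11) missed the threshold (edgeR adjusted p = 0.058). With siMYC it had 132.8 and 114.8 CPM, against 108.6 and 99.13 CPM with siNC, at log2 fold change 0.27 (SE 0.12) and adjusted p = 0.084. The MGA value passed the threshold under 6 of 19 alternatives, among them the fit of the vector libraries alone (0.30, adjusted p = 0.017). It was 0.24 with upper-quartile size factors (adjusted p = 0.16) and 0.19 with library sizes alone (adjusted p = 0.28), and missed the threshold in DESeq2 (adjusted p = 0.22). The siMYC value passed under 5 of 19, among them RLE size factors (0.31, adjusted p = 0.043) and leaving out siMYC replicate B (0.35, adjusted p = 0.047), and was 0.15 without siMYC replicate A (adjusted p = 0.51).

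The gene for the cytoplasmic ERK phosphatase, DUSP6, is often the most direct transcript readout of ERK activity. Its counts were low, at 35 and 34 with MGA, 29 and 18 with Empty, 58 and 28 with siMYC, and 25 and 26 with siNC. Scaled to depth these were 31.93 and 39.72 CPM with MGA, against 33.57 and 21.59 CPM with Empty, and 26.66 and 17.18 CPM with siMYC, against 17.86 and 15.16 CPM with siNC. The groups overlapped in both experiments. The log2 fold change was 0.35 (SE 0.29, 95% interval -0.24 to 0.95) with MGA and 0.45 (SE 0.27, 95% interval -0.11 to 1.01) with siMYC. Neither passed the threshold, at adjusted p-values of 0.52 and 0.2 in edgeR, and at these counts neither a rise to 1.5 times the control level nor no change lies outside the intervals. Single libraries moved both values. With MGA it was 0.71 without Empty replicate A, 0.07 without Empty replicate B and 0.21 without MGA replicate B, and with siMYC 0.07 without siMYC replicate A and 0.69 without siMYC replicate B.

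On the deposited TPM scale DUSP6 looked different. It had 28.28 and 31.36 TPM with MGA, against 15.13 and 9.45 TPM with Empty, and these groups did not overlap. TPM corrects for transcript length as RSEM estimated it in each library. The gene length listed for DUSP6 was 1874 and 2080 bases with MGA, against 3432 and 3435 bases with Empty. In the siRNA experiment it was 2937 and 1913 bases with siMYC, against 2794 and 2555 bases with siNC. The log2 fold change with MGA on log2(TPM + 1) was 1.25, against 0.35 on counts, and it did not pass the threshold there either (adjusted p = 0.096 in limma). Whether the shorter estimate reflects a shift in transcript use was not tested; the files list 5 transcripts for the gene, and 18 to 58 counts were divided among them. SPRED1, SPRY4 and ETV5 also had unstable lengths, of 3214 to 7780, 2568 to 4938 and 2303 to 4111 bases, so differences of these 4 genes are given from counts.

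**Figure D2:**
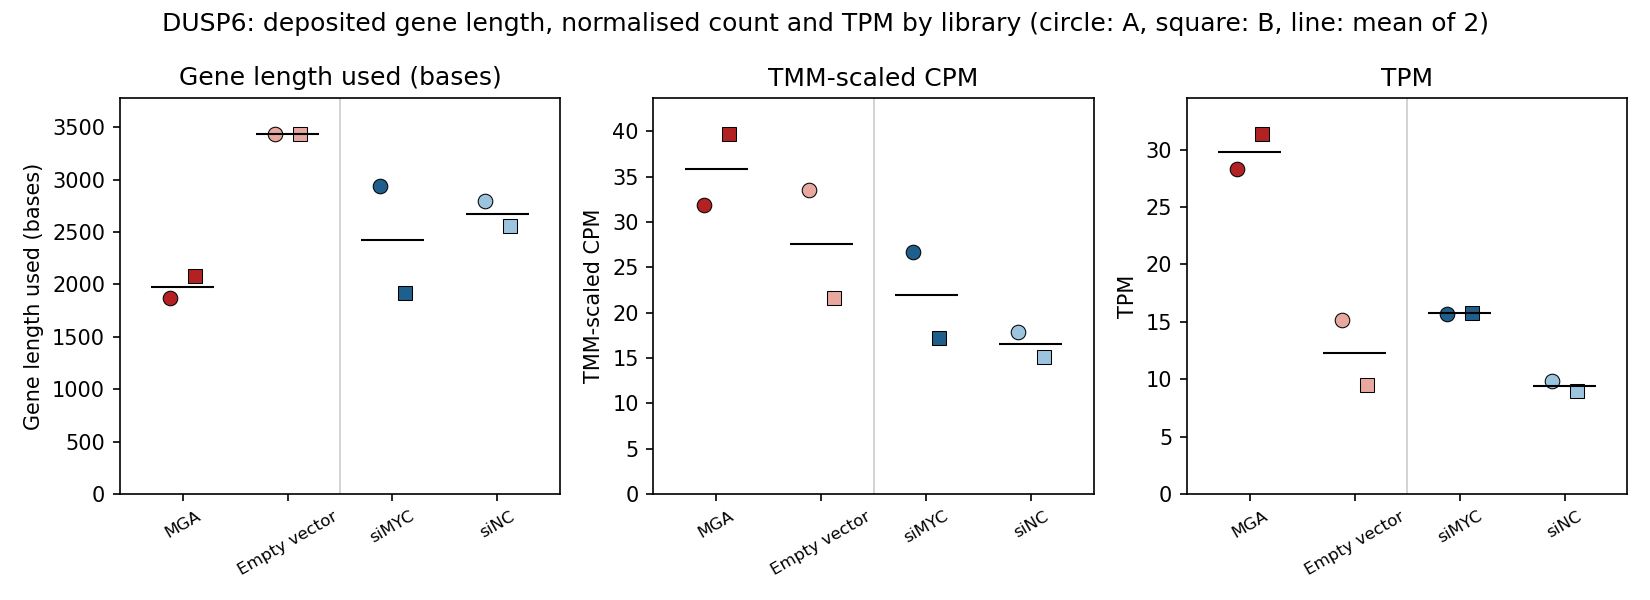
DUSP6 in each library as the deposited gene length in bases, as CPM and as TPM (vertical axes from 0), by group. Circles are replicate A, squares replicate B and lines the mean of 2. CPM overlaps between MGA and Empty while TPM does not, and the length is 1874 and 2080 bases with MGA against 3432 and 3435 bases with Empty.

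The Sprouty and SPRED genes act upstream of ERK and gave no call in either comparison. SPRY2 had 33.76 and 30.38 CPM with MGA, against 18.52 and 37.17 CPM with Empty, where the Empty libraries enclosed the MGA libraries (log2 fold change 0.22, SE 0.31, adjusted p = 0.74; -0.21 without Empty replicate A). With siMYC it had 15.63 and 23.32 CPM, against 12.14 and 9.913 CPM with siNC, and the groups did not overlap. That difference was the largest fitted for the 9 genes with siMYC, at 0.79 (SE 0.32, 95% interval 0.13 to 1.46), and it missed the threshold by little (edgeR adjusted p = 0.052). It passed under each of 9 alternatives, among them RLE size factors (0.84, adjusted p = 0.039) and leaving out siMYC replicate A (1.08, adjusted p = 0.023), and missed it in DESeq2 (adjusted p = 0.22) and without siMYC replicate B (0.50, adjusted p = 0.32).

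SPRY4 had 52.01 and 31.54 CPM with MGA, against 31.26 and 35.98 CPM with Empty. With siMYC it had 21.6 and 9.819 CPM, against 12.14 and 15.74 CPM with siNC. MGA replicate A and siMYC replicate A were the highest of their experiments and the groups overlapped, with log2 fold changes of 0.35 (SE 0.30) with MGA and 0.22 (SE 0.33) with siMYC, at adjusted p-values of 0.53 and 0.64 in edgeR. The direction rests on those libraries: it was -0.09 without MGA replicate A and -0.52 without siMYC replicate A.

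SPRED1 had the largest fitted difference of the 9 genes with MGA. It had 66.6 and 56.08 CPM with MGA, against 48.62 and 29.98 CPM with Empty, without overlap, and a log2 fold change of 0.65 (SE 0.23, 95% interval 0.18 to 1.12, edgeR adjusted p = 0.078). The 2 Empty libraries differed widely, and the value was 1.04 without Empty replicate A (adjusted p = 0.049) and 0.34 without Empty replicate B (adjusted p = 0.55). With siMYC it had 45.5 and 41.12 CPM, against 30.72 and 36.15 CPM with siNC, at log2 fold change 0.37 (SE 0.20) and adjusted p = 0.14, and 0.06 on log2(TPM + 1).

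Of the ETS factor genes, ETV5 rose with siMYC and ETV4 gave no call; the difference between these 2 genes was not tested. ETV5 had 62.04 and 59.53 CPM with siMYC, against 38.58 and 45.49 CPM with siNC, and rose by a log2 fold change of 0.52 (SE 0.16, 95% interval 0.19 to 0.86, edgeR adjusted p = 0.012), or 1.439 times. The call was lost without siNC replicate A (0.42, adjusted p = 0.11), without siMYC replicate A (0.49, adjusted p = 0.068) and in DESeq2 (adjusted p = 0.14). On log2(TPM + 1) the value was 0.84 (adjusted p = 0.11 in limma). No difference was detectable with MGA, at 63.87 and 54.91 CPM with MGA, against 56.73 and 57.56 CPM with Empty (log2 fold change 0.07, SE 0.20, 95% interval -0.34 to 0.47); the sign turned with upper-quartile size factors (-0.01) and with library sizes alone (-0.06). ETV4 had 40.9 and 57.07 CPM with siMYC, against 65.72 and 54.82 CPM with siNC, at log2 fold change -0.31 (SE 0.19) and adjusted p = 0.19. That value was -0.07 without siMYC replicate A, -0.19 without siNC replicate A and -0.56 without siMYC replicate B, where it passed the threshold (adjusted p = 0.037). With MGA it had 37.41 and 32.71 CPM, against 50.94 and 31.18 CPM with Empty, at log2 fold change -0.22 (SE 0.27) and adjusted p = 0.69; the value became 0.18 without Empty replicate A. ETV4 was thus the gene with a negative fitted value in both comparisons, and neither passed the threshold.

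PHLDA1, the MEK readout gene, had 558.4 and 537.4 CPM with MGA, against 433.0 and 416.1 CPM with Empty, without overlap. The log2 fold change was 0.37 (SE 0.13, 95% interval 0.11 to 0.63) at an adjusted p of 0.068 in edgeR, and 0.35 at an adjusted p of 0.0017 in the fit of the vector libraries alone. It passed under 8 of 19 alternatives, was 0.24 with library sizes alone (adjusted p = 0.25) and missed the threshold in DESeq2 (adjusted p = 0.21) and without any 1 vector library (adjusted p 0.18 to 0.33). With siMYC it had 177.9 and 131.9 CPM, against 164.3 and 107.9 CPM with siNC. In the siRNA experiment replicate A exceeded replicate B in both groups by more than the groups differed, and the log2 fold change was 0.22 (SE 0.15, adjusted p = 0.24), with -0.03 without siMYC replicate A and -0.08 without siNC replicate B. It passed the threshold without siNC replicate A (0.54, adjusted p = 0.0068) or siMYC replicate B (0.40, adjusted p = 0.037).

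**Figure D3:**
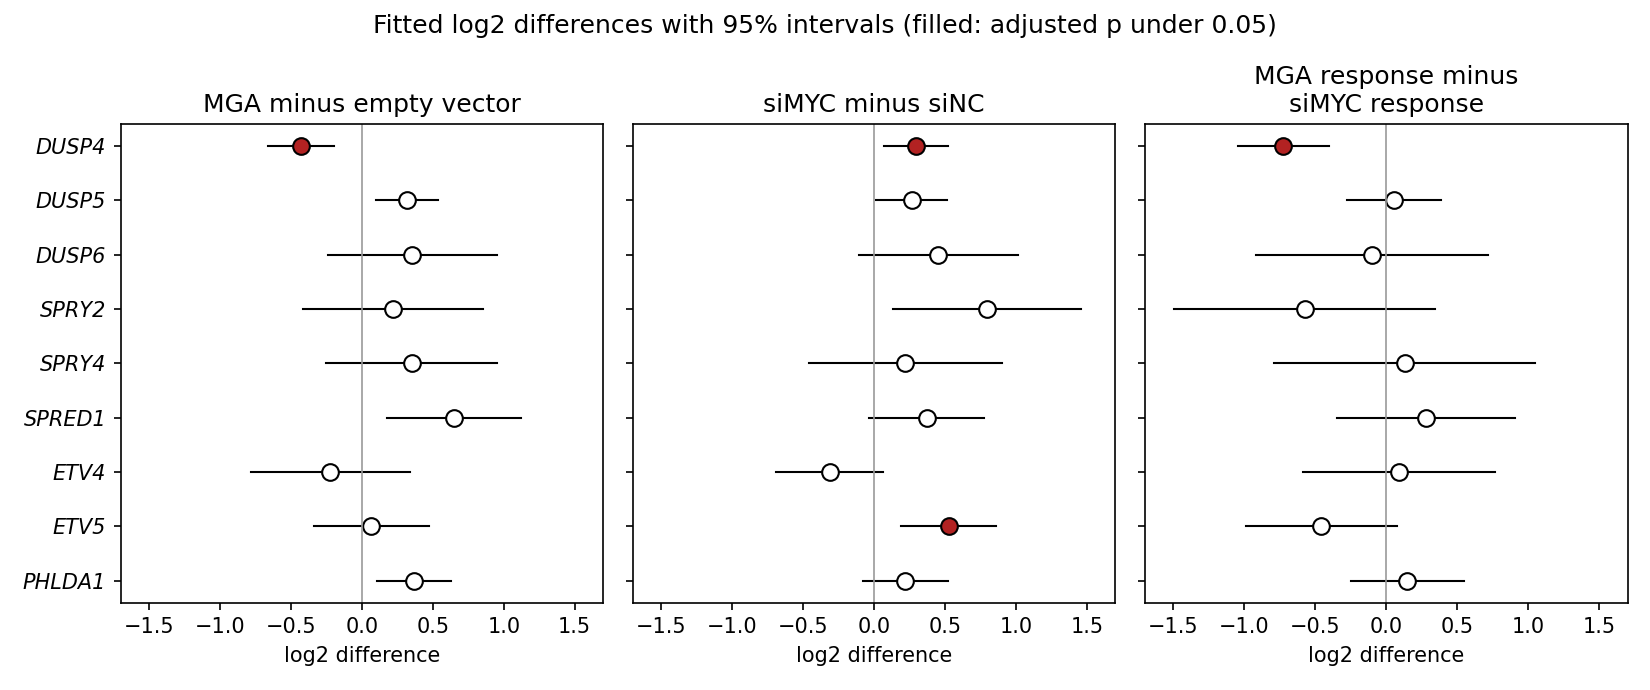
Fitted log2 fold change of each of the 9 genes with its 95% interval (horizontal axis), for MGA minus Empty, for siMYC minus siNC and for the difference of these responses. Filled points passed an adjusted p under 0.05. DUSP4 lies at -0.43 with MGA, 0.30 with siMYC and -0.73 for the difference, and ETV5 at 0.52 with siMYC.

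The groups were also compared by whether their libraries overlapped, without a test. With MGA the groups did not overlap in CPM for 4 of the 9 genes, 3 of them higher (DUSP5, SPRED1 and PHLDA1) and 1 lower (DUSP4); over all genes tested 52.6% did not overlap (27.6% higher and 25.0% lower). With siMYC they did not overlap for 5 of the 9 genes, all higher (DUSP4, DUSP5, SPRY2, SPRED1 and ETV5), against 67.6% over all genes tested (34.0% higher and 33.6% lower).

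Ratios between genes of 1 library do not depend on the scaling of libraries, and the pairs given here were chosen after their values were seen. The ratios are not corrected for gene length, so a ratio of 1 does not mark equal levels. The ratio of DUSP4 to DUSP5 counts was 0.887 and 0.764 in the MGA libraries, against 1.352 and 1.442 in the Empty libraries. The groups did not overlap in this ratio, and the lengths of the 2 genes hardly varied (5471 to 5537 bases for DUSP4 and 2557 bases for DUSP5). In the siRNA experiment the ratio was 2.121 and 2.23 with siMYC, against 2.243 and 1.994 with siNC, and the groups overlapped. The ratio of DUSP4 to PHLDA1 was 0.628 and 0.548 with MGA, against 0.987 and 1.072 with Empty, and 1.584 and 1.94 with siMYC, against 1.483 and 1.832 with siNC. The ratio of ETV5 to ETV4 counts was 1.517 and 1.043 with siMYC, against 0.587 and 0.83 with siNC, without overlap. In TPM, ETV4 stood above ETV5 in both siMYC libraries (36.25 and 47.47 TPM against 26.07 and 29.85 TPM), as in both siNC libraries. With MGA the count ratio of ETV5 to ETV4 was 1.707 and 1.679, against 1.114 and 1.846 with Empty. The Empty libraries enclosed the MGA libraries.

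**Figure D4:**
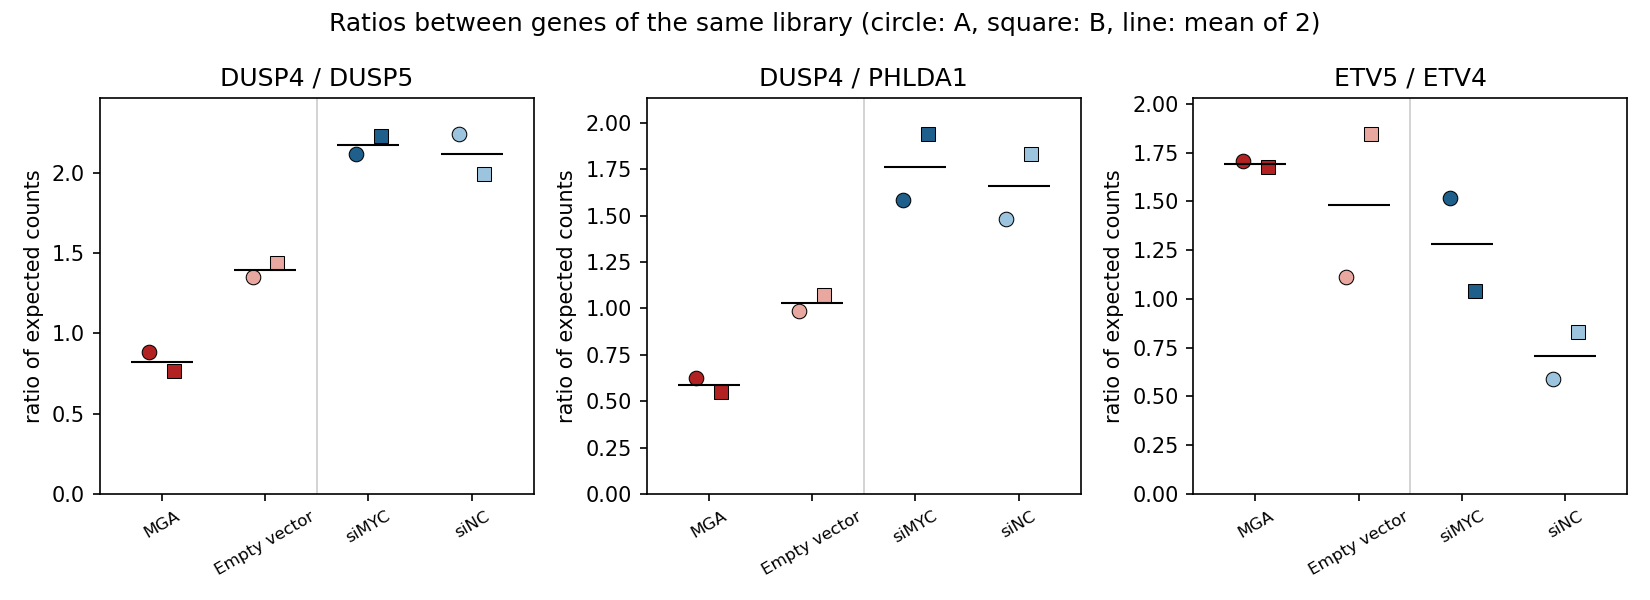
Ratios of expected counts between genes of the same library (vertical axes, linear, from 0), by group, with circles for replicate A, squares for replicate B and lines for the mean of 2. DUSP4 to DUSP5 is 0.764 and 0.887 with MGA against 1.352 and 1.442 with Empty, and ETV5 to ETV4 is 1.043 and 1.517 with siMYC against 0.587 and 0.83 with siNC.

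Levels of different genes were compared on the TPM scale, which corrects for length; the ranks of DUSP6, SPRED1, SPRY4 and ETV5 carry the spread of their estimated lengths. DUSP5 was highest in all 4 groups by its mean, at 244.4 ± 3.78 TPM with MGA, 191.5 ± 6.46 TPM with Empty, 83.6 ± 10.2 TPM with siMYC and 62.4 ± 5.06 TPM with siNC (SD, n = 2 each). In MGA cells PHLDA1 (144.1 ± 3.54 TPM) and DUSP4 (88.9 ± 10.1 TPM) came next, and in Empty cells DUSP4 (117.5 ± 1.36 TPM) stood above PHLDA1 (109.2 ± 5.04 TPM), without overlap in either group. The other 6 genes averaged at most 35.0 TPM in Empty cells, where ETV4, ETV5 and SPRY2 did not differ beyond their spread. ETV5, DUSP6, ETV4 and SPRY2 lay between 25.1 and 31.8 TPM with MGA, where neighbours in this order did not differ beyond their spread, and SPRED1 and SPRY4 were lowest at 14.0 ± 1.68 and 13.4 ± 3.72 TPM. In siMYC cells DUSP5 and DUSP4 (80.3 ± 6.89 TPM) did not differ beyond their spread, nor did PHLDA1 (44.3 ± 9.88 TPM) and ETV4 (41.9 ± 7.93 TPM). Below them came ETV5 (28.0 ± 2.67 TPM), SPRY2 (16.2 ± 3.71 TPM), DUSP6 (15.7 ± 0.0495 TPM), SPRED1 (10.4 ± 1.07 TPM) and SPRY4 (5.88 ± 3.72 TPM). In siNC cells the order began with DUSP5, DUSP4 (58.6 ± 9.72 TPM), ETV4 (44.9 ± 4.38 TPM) and PHLDA1 (34.5 ± 10.6 TPM), of which DUSP5 and DUSP4 overlapped, as did ETV4 and PHLDA1. The lowest there was SPRY4, at 5.99 ± 1.91 TPM.

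The experiments also stood at different levels. The summed TPM of the 9 genes was 642.1 and 594.0 with MGA, 557.5 and 523.4 with Empty, 337.0 and 315.5 with siMYC, and 266.9 and 233.0 with siNC. Most of that gap lay in DUSP5 and PHLDA1: DUSP5 was at 196.1 and 187.0 TPM in Empty cells and at 65.95 and 58.8 TPM in siNC cells, and PHLDA1 at 112.8 and 105.7 TPM in Empty cells and 42.0 and 27.04 TPM in siNC cells. ETV4 ran the other way by its mean, at 35.0 ± 13.1 TPM in Empty cells and 44.9 ± 4.38 TPM in siNC cells. The vector and siRNA treatments were separate experiments, so delivery, batch and culture cannot be told apart from the group, and no test was made between them.

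The rest of the pathway was read from 4 lists, which were chosen with earlier results of these data known. Among ERK-responsive genes outside the 9, 6 of 14 tested genes rose with MGA and 1 fell, with a median log2 fold change of 0.47, against 4.96% higher and 4.0% lower over all genes. FOSL1, an AP-1 subunit stabilised by ERK, had 393.3 ± 33.6 CPM with MGA and 213.2 ± 0.306 CPM with Empty (log2 fold change 0.88, SE 0.11, edgeR adjusted p = 5.7e-06). HBEGF, a ligand of the EGF receptor, had 57.7 ± 9.31 CPM with MGA and 25.3 ± 1.87 CPM with Empty (1.17, SE 0.26, adjusted p = 0.004). The receptor gene EPHA2 rose by 0.62 (adjusted p = 0.00028) and the immediate-early gene IER2 by 0.57 (adjusted p = 0.0018). EGR1 (0.50, adjusted p = 0.015) and PLAUR (0.43, adjusted p = 0.029) also rose and the cytokine gene LIF fell by 0.68 (adjusted p = 0.0045); these were chosen after their values were seen. With 1 library of the vector experiment left out, whichever it was, 3 genes rose instead of 6, and 0 fell without Empty replicate A or MGA replicate B. DESeq2 called 3 rises, with no adjusted p for HBEGF, library sizes alone gave 4, and either TPM scale gave 1. HBEGF was then 1.01 to 1.34 and lost its call without Empty replicate B or MGA replicate B, and IER2 was 0.44 to 0.71 and lost it without Empty replicate A or MGA replicate A. With siMYC, 0 of the 14 rose and 1 fell, FOSL1 itself, at 38.7 ± 1.8 CPM with siMYC and 88.8 ± 1.37 CPM with siNC (-1.19, SE 0.15, edgeR adjusted p = 3.7e-07). DESeq2 called 0 rises there, RLE size factors gave 2, and 3 of the 14 had an unadjusted p under 0.05 in edgeR. The median with siMYC was 0.08, against a background of 19.0% higher and 20.0% lower.

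The other negative regulators gave 2 rises and 0 falls among 16 tested genes with MGA, against 4.96% higher and 4.0% lower over all genes tested. RASAL2, which speeds RAS back to its inactive state, had 110.9 ± 3.36 CPM with MGA and 48.3 ± 1.2 CPM with Empty (log2 fold change 1.20, SE 0.19, edgeR adjusted p = 8.2e-05). DUSP14 had 68.3 ± 15.6 CPM with MGA and 43.1 ± 5.24 CPM with Empty (0.69, adjusted p = 0.041). It lost its call without Empty replicate A, Empty replicate B or MGA replicate A, where 1 of the 16 rose, and with upper-quartile size factors, library sizes alone or DESeq2, where 1 also rose; either TPM scale gave 0. With siMYC, 5 of these 16 genes rose and 3 fell (median 0.36), against 19.0% higher and 20.0% lower over all genes tested. CBL, the ubiquitin ligase that takes activated receptors to degradation, had 15.7 ± 0.526 CPM with siMYC and 38.6 ± 0.981 CPM with siNC (-1.29, SE 0.22, edgeR adjusted p = 2.8e-05), and the RAF inhibitor gene PEBP1 fell by 0.49 (adjusted p = 0.0015). DAB2IP, another brake on RAS, had 64.7 ± 2.1 CPM with siMYC and 37.6 ± 4.62 CPM with siNC (0.78, adjusted p = 0.00052). The phosphatase gene DUSP1 rose by 0.38 (adjusted p = 0.0042), with 0.29 to 0.46 when 1 library was left out and the call lost without siNC replicate A or siMYC replicate A. The number that rose was smaller without siNC replicate A, siNC replicate B or siMYC replicate A, and larger without siMYC replicate B. DESeq2 called 3 rises and 1 fall, and either TPM scale 2 rises and 0 falls.

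Genes of the cascade itself, from RAS to ERK, gave 1 rise and 1 fall among 21 tested with MGA (median 0.12). The shares over all genes tested were 4.96% higher and 4.0% lower. BRAF had 72.1 ± 3.84 CPM with MGA and 38.2 ± 8.21 CPM with Empty (log2 fold change 0.91, edgeR adjusted p = 0.0076), and the adaptor gene SHC1 fell by 0.46 (adjusted p = 0.004). Both calls were lost without Empty replicate B and without MGA replicate B, when 0 of the 21 changed; over all libraries left out in turn BRAF was 0.70 to 1.14 and SHC1 -0.52 to -0.40. DESeq2 called SHC1 alone, and either TPM scale called 0 of the 21. With siMYC, 8 of the 21 rose and 2 fell (median 0.18), against 19.0% higher and 20.0% lower over all genes tested. The scaffold gene KSR1 had 49.7 ± 5.15 CPM with siMYC and 23.0 ± 1.25 CPM with siNC (1.11, adjusted p = 5.9e-05), the exchange factor gene SOS2 rose by 1.07 (adjusted p = 2.8e-05), and the RAS family genes NRAS and RRAS rose by 0.71 (adjusted p = 8e-05) and 0.63 (adjusted p = 0.00092). Fewer cascade genes rose without siNC replicate A, siNC replicate B or siMYC replicate A, and more without siMYC replicate B. DESeq2 called 4 rises and either TPM scale 5, each with 0 falls.

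Of 16 tested kinases and transcription factors under ERK control, 4 rose with MGA and 0 fell (median 0.09). The shares over all genes tested were 4.96% higher and 4.0% lower. ETS1 had 392.0 ± 22.4 CPM with MGA and 174.9 ± 6.48 CPM with Empty (log2 fold change 1.17, SE 0.13, edgeR adjusted p = 3.9e-07). ATXN1, a partner of the repressor CIC, had 21.7 ± 2.33 CPM with MGA and 7.11 ± 3.51 CPM with Empty (1.59, adjusted p = 0.015). Its counts were low, at 22 and 20 with MGA and 4 and 8 with Empty. The ETS genes ELK3 and ETS2 rose by 0.67 (adjusted p = 0.011) and 0.48 (adjusted p = 0.02). With 1 vector library left out, 1 or 2 of the 16 rose, in DESeq2 2 rose, with no adjusted p for ATXN1, and on either TPM scale 0 rose. ATXN1 was then 1.16 to 2.19 and lost its call without Empty replicate A or either MGA library, ELK3 was 0.56 to 0.78 and lost it without either Empty library or MGA replicate B, and ETS2 was 0.34 to 0.63 and lost it without Empty replicate B or either MGA library. With siMYC, 4 rose and 2 fell (median 0.07), close to the 19.0% higher and 20.0% lower over all genes tested. MKNK2, a kinase that phosphorylates the cap-binding factor eIF4E, had 176.5 ± 13.6 CPM with siMYC and 91.6 ± 10.8 CPM with siNC (0.96, adjusted p = 1.2e-06), and ELK3 rose again, by 0.82 (adjusted p = 1.6e-05). RPS6KA3 rose by 0.66 (adjusted p = 3.8e-06) and RPS6KA4 fell by 0.66 (adjusted p = 0.0019). DESeq2 called 3 rises and either TPM scale 2, each with 0 falls. Across 19 alternatives MKNK2 with siMYC ranged over 0.53 to 1.07 and lost its call under 2. RPS6KA4 ranged over -0.72 to -0.19 and lost its call under 3. GAB1, SPRY1, SPRY3, SPRED3, DUSP2, DUSP9, EPHA4 and RPS6KA2 did not pass the filter and were not tested.

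**Figure D5:**
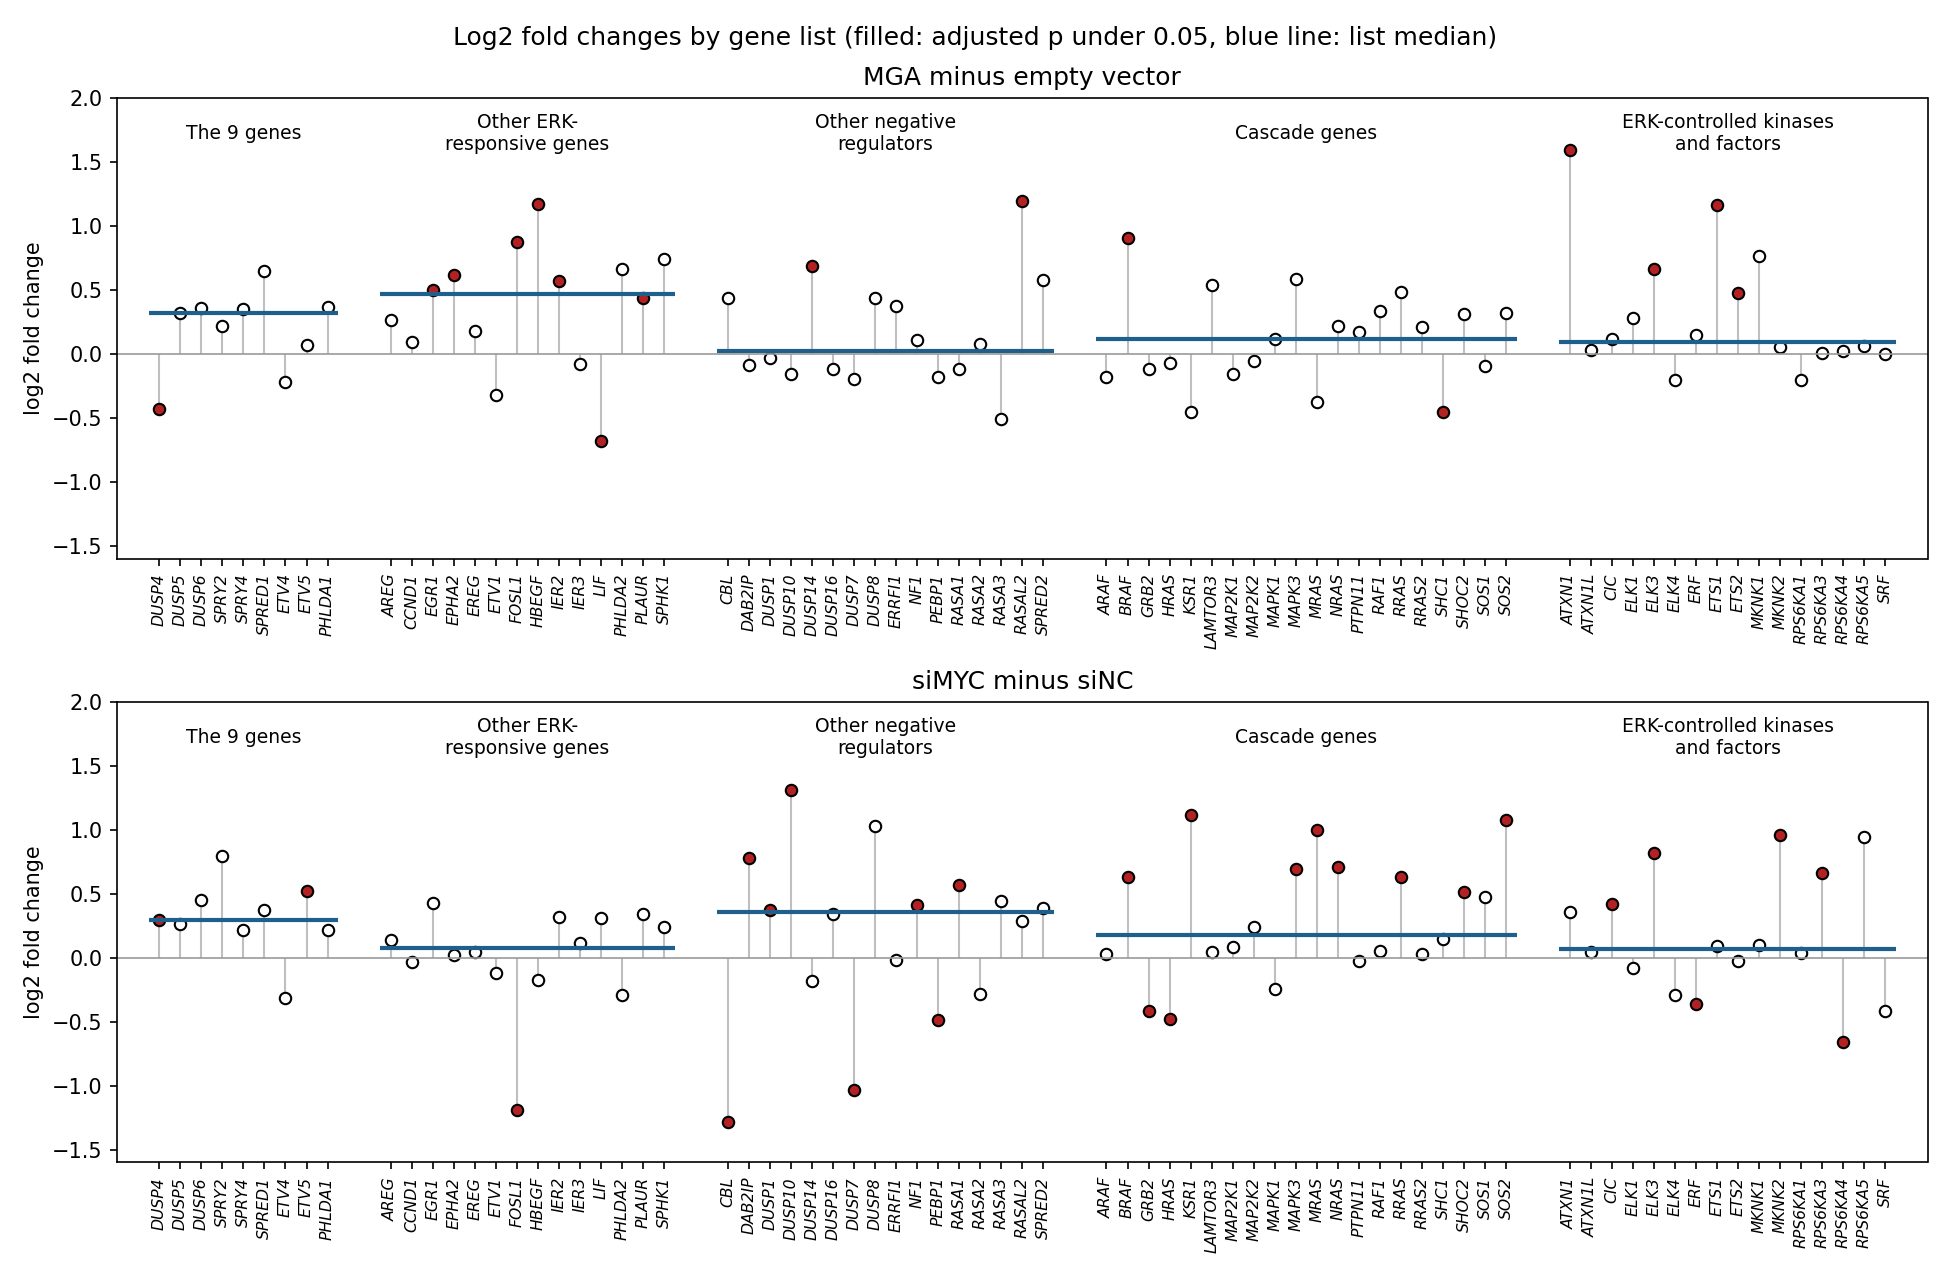
Fitted log2 fold changes (vertical axis) of the 9 genes and of tested genes of the 4 lists (1 cascade gene is not drawn), 1 gene per position, for MGA minus Empty (upper panel) and siMYC minus siNC (lower panel). Filled points passed an adjusted p under 0.05 and the blue line is the median over all tested genes of a list. In the ERK-responsive list 6 genes are filled above 0 with MGA, and with siMYC the 1 filled gene is FOSL1 at -1.19.

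The profile of DUSP6 over the 8 libraries was compared with those of 9030 genes by the root mean square difference of centred log2 CPM, as a description. The nearest were PHF21A (0.103), DOCK10 (0.143), SUPT20H (0.148), ANKS1A (0.155) and CAB39 (0.165). Of the other 8 genes described here SPRED1 was nearest, at 0.287 and rank 365, and ETV4 farthest, at 0.73 and rank 6733.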

How the data were processed

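Poly(A) RNA-seq was read from 1 gene table per library. The submitters' processing notes name STAR, RSEM and the build hg19. No source used here gives tool versions, the annotation or whether counting used strand, so genes that overlap others are uncertain. The authors deposited RSEM expected counts, in which reads shared between genes are divided. Per the file headers the tables also hold the authors' TPM and FPKM, units that correct for library size and gene length; FPKM was not used. Expected counts were rounded to whole numbers, filtered with filterByExpr (minimum count 10, minimum total 15; 11218 of 57820 genes left), scaled by TMM and fitted together as 4 groups in edgeR 4.0.16 (R 4.3.3, 4 residual degrees of freedom). Contrasts were MGA minus Empty, siMYC minus siNC and their difference, tested with the two-sided quasi-likelihood F test and adjusted by Benjamini-Hochberg over all genes tested. Unless another tool is named, adjusted p-values are edgeR's. A standard error is the log2 fold change divided by the square root of F, and CPM means are given with SD. The common biological coefficient of variation was 0.0623, against 0.0343 in the vector libraries alone and 0.0725 in the siRNA libraries alone. Replicates differed by more than sampling noise (chi-square per degree of freedom 1.14 to 1.79) and all 8 libraries were kept.

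The 9 genes and the lists were chosen with earlier results of these data known. Named outside the 9 were MGA, MYC, the called genes with the 4 smallest p of each list and comparison, and the 5 genes most like DUSP6 with an average log2 CPM of at least 4; others are said to be chosen later. Counts and medians of the cascade list include 1 gene whose own values are not reported here. Alternatives were other size factors, leaving out the MGA gene, other filters (none; minimum count 30), DESeq2 1.42.0, limma 3.58.1 on log2(TPM + 1) and log2(TPM + 0.1), each experiment alone, a replicate block, and leaving out each library. Promoter windows came from RefSeq.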

Additional observations from a re-analysis of the deposited data

Results flagged for a closer look

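DUSP4 was singled out because its response to MGA and its response to siMYC differed by the test of the difference itself: the log2 response to MGA minus that to siMYC was -0.73 (edgeR adjusted p = 0.0015), with both MGA libraries below both Empty libraries and both siMYC libraries above both siNC libraries. In the full lists that test called 3 genes higher and 1 lower of 14 ERK-responsive genes, and 3 and 2 of 16 negative regulators. It called 0 higher and 2 lower of 21 cascade genes, and 1 and 2 of 16 kinases and transcription factors. Over all genes tested 18.5% passed (10.3% higher and 8.22% lower). Among the list genes named by the rule on smallest p, 12 others were singled out by the same test. Those genes were named for a small p in a comparison that enters the difference, which favours a call. The difference was positive for FOSL1 (2.07), CBL (1.73), ETS1 (1.08), RASAL2 (0.91), DUSP14 (0.87) and EPHA2 (0.60). It was negative for KSR1 (-1.56), MKNK2 (-0.90), DAB2IP (-0.86), RPS6KA3 (-0.66), SHC1 (-0.60) and DUSP1 (-0.41). LIF (-0.99, adjusted p = 0.00095) and PHLDA2 (0.95, adjusted p = 0.032), chosen after their values were seen, passed it too. FOSL1, DUSP4 and the siRNA target MYC were the named genes called in opposite directions in the 2 comparisons. DUSP14, DAB2IP and DUSP1 were the least stable: their difference lost its call under 15, 10 and 10 of 18 alternatives, and that of FOSL1 under 0 of 18. No explanation was weighed.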

How the results depend on the processing

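The number of the 9 genes called with MGA was 1, against 2 with no filter, 3 with a minimum count of 30, 3 in the fit of the vector libraries alone, 0 in DESeq2 and 0 on either TPM scale, and 0 to 3 leaving out 1 library. With siMYC it was 2, against 4 with RLE or upper-quartile scaling, library sizes alone or the MGA gene left out, 1 in the fit of the siRNA libraries alone, 0 in DESeq2 and 0 on either TPM scale, and 1 to 5 leaving out 1 library (5 without siMYC replicate B, 1 without siNC replicate B or siMYC replicate A). For the difference of responses it was 1, against 0 on either TPM scale. Among all genes that each setting tested, those called with MGA numbered 1038 with no filter and 1087 with a minimum count of 30. The fit of the vector libraries alone called 1381 and the replicate block 1176. With siMYC all genes called numbered 4456 with RLE and 4442 with upper-quartile scaling, 4450 with library sizes alone and 4511 with the MGA gene left out. The fit of the siRNA libraries alone called 4135 and the replicate block 4657. Genes called over the whole table numbered 1005 with MGA (358 in DESeq2, 82 on log2(TPM + 1), 63 on log2(TPM + 0.1), 402 to 1121 leaving out 1 library), 4370 with siMYC (1971, 1245 and 1191) and 2076 for the difference (827, 347, 331, and 1309 to 1937 leaving out 1 library). Without Empty replicates A and B and MGA replicates A and B in turn the MGA count was 434, 405, 402 and 474. The deviations of same-lettered replicates had r = -0.02 in the vector experiment and 0.13 in the siRNA experiment, across 11218 genes. No label says what the letters share, so they were not taken as pairs; the replicate block called 3 of the 9 genes with MGA and 3 with siMYC.

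Signs turned for values that were not called: SPRY2 with MGA (-0.21 without Empty replicate A, 0.79 without Empty replicate B), SPRY4 with MGA (-0.089 to 0.63 leaving out 1 library) and with siMYC (-0.11 on log2(TPM + 1), -0.15 on log2(TPM + 0.1), -0.52 without siMYC replicate A, 0.60 without siMYC replicate B), ETV4 with MGA (0.18 without Empty replicate A, -0.53 without Empty replicate B), ETV5 with MGA (-0.0091 with upper-quartile scaling, -0.062 with library sizes alone, -0.056 to 0.16 leaving out 1 library) and PHLDA1 with siMYC (-0.084 without siNC replicate B, -0.028 without siMYC replicate A, 0.54 without siNC replicate A). The called difference of MKNK2 became 0.20 on log2(TPM + 1) and 0.21 on log2(TPM + 0.1). The cause was not tested. DUSP4 kept its direction under all alternatives run, from -0.57 to -0.32 with MGA (adjusted p 0.00058 to 0.28) and from 0.13 to 0.46 with siMYC (adjusted p 0.0057 to 0.47). ETV5 with siMYC ranged over 0.42 to 0.88 (adjusted p 0.0048 to 0.14). DESeq2 gave no adjusted p for DUSP6, SPRY2, SPRY4, HBEGF and ATXN1 with MGA. Library sizes alone moved the median of all genes to -0.12 with MGA. With 16 to 58 counts for DUSP6, SPRY2 and SPRY4, depth limits what can be seen of these genes.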
